A study of Mus musculus with 6 samples.

Results

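Foxo1, Foxo3 and Foxo4, the FOXO transcription factor genes on this array, were followed probe set by probe set in mouse ovarian granulosa cells. A probe set is the group of short probes whose signals are combined into 1 value. All probe sets that the platform annotation gives to 1 of these genes alone were taken, and these 3 genes of 18193 had 9 probe sets of 45037: 4 for Foxo1, 3 for Foxo3 and 2 for Foxo4. A further probe set shared by Foxo3 and the gene model Gm38485 was left out, and Foxo6 was not analysed here. Total RNA of granulosa cells was measured on 6 arrays, 2 in each of 3 groups. The first group is a conditional double knockout at 2 months of age, the second is the same knockout at day 25, and the third is wild type at day 25. The knockout, called dKO, is written Foxo1 f/-;Foxo3 f/- with Amhr2-cre in the labels. All 6 samples share a mixed background of FVB and C57BL/6. Amhr2 encodes the receptor of anti-Müllerian hormone and is active in granulosa cells, and its activity in a cell limits where the Cre recombinase can act. The labels give neither the part of Foxo1 or Foxo3 that is removed, nor the pooling of animals, nor whether wild-type mice carried floxed alleles or Cre. No 2-month wild-type cells were analysed here, so 2-month dKO cells differ from wild type in age and genotype together.

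FOXO proteins are forkhead transcription factors that bind DNA and switch on genes of cell cycle arrest, cell death, stress defence and metabolism. When insulin, IGF1 or FSH activates PI3K, the kinases AKT and SGK phosphorylate FOXO proteins, which then leave the nucleus bound to 14-3-3 proteins. In the mouse ovary FOXO1 is known as an abundant factor of granulosa cells in growing follicles, and FOXO3 is best known for holding primordial oocytes dormant.

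In dKO cells Foxo1 and Foxo3, the pair named in the knockout, ran in opposite directions against wild type on their brightest probe sets. Between the dKO ages both were lower at 2 months. Their promoters are shown because of the difference from wild type. They are the 250 bases before the RefSeq start of each gene, read 5′ to 3′ on the strand of the gene (build GRCm38.p6), and 2 of the 3 genes had an entry. Foxo1 is chr3:52268087-52268336 on the plus strand and Foxo3 is chr10:42276696-42276945 on the minus strand. Capitals mark CCAAT and GGGCGG on either strand, the letters of the CCAAT box and of the GC box.
Foxo1: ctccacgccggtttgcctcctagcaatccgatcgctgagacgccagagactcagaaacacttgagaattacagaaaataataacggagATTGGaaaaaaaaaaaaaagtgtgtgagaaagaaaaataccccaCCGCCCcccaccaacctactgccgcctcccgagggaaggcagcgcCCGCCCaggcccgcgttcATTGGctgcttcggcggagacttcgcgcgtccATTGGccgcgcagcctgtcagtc
Foxo3: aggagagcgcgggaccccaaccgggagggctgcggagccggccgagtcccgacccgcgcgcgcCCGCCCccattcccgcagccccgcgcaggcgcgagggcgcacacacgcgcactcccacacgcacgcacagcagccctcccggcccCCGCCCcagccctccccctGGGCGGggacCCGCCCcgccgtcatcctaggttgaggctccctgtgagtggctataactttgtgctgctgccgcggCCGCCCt
The Foxo1 stretch held 3 CCAAT boxes and 2 GC boxes and was 56% G or C. The Foxo3 stretch held 0 CCAAT boxes and 5 GC boxes and was 76.4% G or C, against a median of 52.4% over 32851 promoters of the same length. A CCAAT box occurred in 33.8% of those promoters and a GC box in 32.7%. The FOXO binding element GTAAACA, searched on both strands, was in neither stretch and in 3.17% of all promoters. No motif overlapped another kind in these stretches. The letters describe the windows only.

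The arrays had close distributions, with a median intensity of 73 or 74 on each. dKO 2-month replicate 1 stood apart, with r from 0.964 to 0.978 against the other arrays over all probe sets, while the other pairs had r from 0.982 to 0.992. The 2-month log2 differences printed for FOXO probe sets are therefore also given without it. All 14 granulosa markers averaged above the array median, and the dimmest of them, the oestrogen receptor gene Esr2, read 213 to 590. Tests are two-sided limma contrasts of log2(intensity + 1), with Benjamini-Hochberg adjustment over 45037 probe sets and a threshold of 0.05. No probe set of any gene passed that threshold in any of the 3 comparisons, so the values below describe these arrays, and unadjusted p-values are given as such.

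Foxo1 had much lower intensity in dKO cells than in wild-type cells, and lower again at 2 months than at day 25. Its brightest probe set, 1416983_s_at, read 126 and 343 in dKO at 2 months, 904 and 2291 in dKO at day 25, and 10319 and 7666 in wild type, for replicates 1 and 2. Probe set 1416981_at read 77 and 154 in dKO at 2 months, 398 and 1022 in dKO at day 25, and 5717 and 4746 in wild type. Probe set 1416982_at read 50 and 102 in dKO at 2 months, 250 and 680 in dKO at day 25, and 3726 and 2436 in wild type. No 2 groups overlapped on any of these 3 probe sets, and the order was the same on each, with 2-month dKO lowest and wild type highest. The annotation ties these 3 to a single sequence record, so they are repeated readings of Foxo1 RNA and not separate evidence. The fourth, 1456529_at, comes from another record and read 14 and 22 in dKO at 2 months, 18 and 22 in dKO at day 25, and 20 and 19 in wild type. Those values lie at or below the lower quartile of the arrays, 22 or 23, and the groups overlapped.

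At day 25 the 3 bright Foxo1 probe sets stood at 13.6% to 17.8% of the wild-type mean in dKO cells. The log2 difference of 1416983_s_at was -2.63 ± 0.65 (SE, n = 2 arrays a group), a 6.18-fold lower level, with unadjusted p = 0.0108 and adjusted p = 0.508 in limma. Of all 45037 probe sets, only 2 had a lower log2 difference than 1416981_at, which was -3.03 ± 0.55 (adjusted p = 0.474). The size depended on the dKO array. Replicate 1 stood at 7.61% to 10.1% of the wild-type mean over the bright probe sets and replicate 2 at 19.5% to 25.5%. On 1416983_s_at the log2 difference was -3.30 without dKO day 25 replicate 2 and -1.96 without replicate 1.

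Between day 25 and 2 months the remaining Foxo1 signal of dKO cells was lower by a further 5.70-fold to 6.89-fold on the bright probe sets. For 1416983_s_at the log2 difference was -2.78 ± 0.65 (SE), unadjusted p = 0.00858 and adjusted p = 0.712 in limma. Without dKO 2-month replicate 1 it was -2.07, and the other two bright probe sets had -2.04 and -2.01, so the direction did not need that array. Without replicate 2 of that group it was -3.50. Set against wild type, 2-month dKO cells stood at 2.21% to 2.61% of the wild-type mean. The 3 bright Foxo1 probe sets had the 3 lowest log2 differences of all 45037 in that comparison, at -5.57 ± 0.55 for 1416981_at, -5.41 ± 0.65 for 1416983_s_at and -5.38 ± 0.61 for 1416982_at (adjusted p = 0.139 each in limma). Without dKO 2-month replicate 1 they were -5.07, -4.69 and -4.87. The RNA came from bulk cells, so fewer cells with intact Foxo1 and less Foxo1 RNA per cell cannot be told apart.

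**Figure D1:**
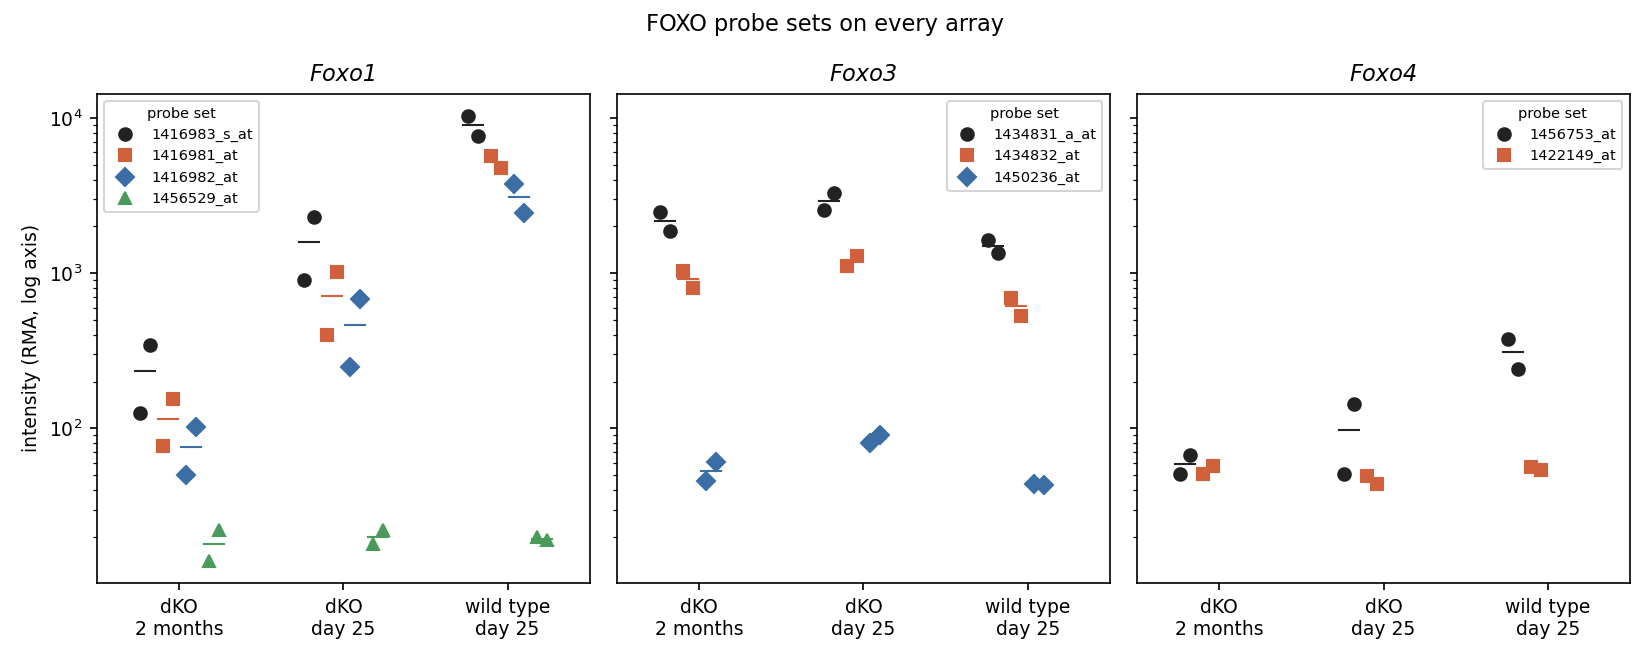
Intensity (log axis) of the 9 FOXO probe sets on each array, with 1 point per array, replicate 1 left of replicate 2, and a bar at the mean of 2 arrays. The bright Foxo1 probe sets are lowest in dKO at 2 months, higher in dKO at day 25 and highest in wild type, the Foxo3 probe sets are highest in dKO at day 25, and 1 of 2 Foxo4 probe sets is low in the dKO.

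Foxo3, the other gene named in the knockout, read higher in dKO cells than in wild-type cells on all 3 of its probe sets. The brightest, 1434831_a_at, read 2484 and 1872 in dKO at 2 months, 2539 and 3279 in dKO at day 25, and 1632 and 1342 in wild type. Probe set 1434832_at, from the same sequence record, read 1028 and 806 in dKO at 2 months, 1117 and 1292 in dKO at day 25, and 688 and 533 in wild type. Probe set 1450236_at, from a different record, was dim and read 46 and 61 in dKO at 2 months, 80 and 91 in dKO at day 25, and 44 and 43 in wild type. Again no 2 groups overlapped, and every probe set had dKO at day 25 highest and wild type lowest. On 1450236_at the lowest 2-month dKO array, at 46, lay close to the highest wild-type array, at 44. On 1434831_a_at the highest 2-month dKO array, at 2484, lay close to the lowest day 25 dKO array, at 2539. Oocyte markers also had higher means in dKO at day 25 than in wild type, for 15 of 15 genes, against 10130 of 18193 over all genes. At an unadjusted p under 0.05 in limma, 0 of these markers were higher (4.89% of all genes). Their median log2 difference was 1.10, against 0.03 over all genes. At 2 months against wild type their means were higher for 2 and lower for 13, with a median of -0.86 (0.04 over all genes). Their 2-month sums were 8306 and 47020 for replicates 1 and 2, against 41033 and 24956 in wild type. Means at day 25 were also higher in dKO for 11 of 12 leukocyte, 11 of 11 endothelial and 12 of 12 stromal and smooth muscle markers. Theca and interstitial markers had 3 higher and 3 lower. At 2 months against wild type the higher counts of these 4 lists were 12 of 12, 11 of 11, 10 of 12 and 5 of 6. The part of RNA from oocytes or from these other cells in the Foxo3 values was not tested.

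The Foxo3 log2 differences at day 25 were nearly the same on probe sets of very different brightness. They were 0.96 ± 0.22 (SE), 0.99 ± 0.20 and 0.96 ± 0.17 in the order above, or 1.95-fold, 1.98-fold and 1.94-fold. Unadjusted p-values were from 0.00248 to 0.00731 and adjusted p-values from 0.474 to 0.485 in limma. The 95% interval of the brightest was 0.40 to 1.53 on the log2 scale. Such a difference was less rare than that of Foxo1, since 765 of 45037 probe sets had a log2 difference at least as high as the highest of Foxo3.

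At 2 months Foxo3 stood between the other groups. Against dKO at day 25 the log2 differences were -0.42 ± 0.22 (SE), -0.40 ± 0.20 and -0.68 ± 0.17, with unadjusted p from 0.0103 to 0.112 and adjusted p = 0.712 on each in limma. Without dKO 2-month replicate 1 they were -0.62, -0.58 and -0.48. Against wild type they were 0.54 ± 0.22, 0.59 ± 0.20 and 0.28 ± 0.17, with adjusted p from 0.353 to 0.508, and without dKO 2-month replicate 1 they were 0.34, 0.41 and 0.48. A probe set outside the removed part of Foxo3 does not check the deletion, and the place of these probes in the gene was not examined here.

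Foxo4, a FOXO gene that the label of the dKO does not name, gave different readings on its probe sets. The brighter, 1456753_at, read 51 and 67 in dKO at 2 months, 51 and 144 in dKO at day 25, and 376 and 242 in wild type. Both dKO groups lay below wild type there, and they overlapped each other. The dimmer, 1422149_at, read 51 and 57 in dKO at 2 months, 49 and 44 in dKO at day 25, and 56 and 54 in wild type. It stayed below the array median of 73 or 74 on every array, and 2-month dKO and wild type overlapped.

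On 1456753_at the log2 difference at day 25 was -1.80 ± 0.54 (SE), a 3.49-fold lower level with unadjusted p = 0.0216 and adjusted p = 0.555 in limma, and 57 of 45037 probe sets were as low or lower. It was -2.54 without dKO day 25 replicate 2 and -1.06 without replicate 1. Without wild-type replicate 1 it was -1.48 and without wild-type replicate 2 -2.12. At 2 months against wild type it was -2.35 ± 0.54, unadjusted p = 0.00792 and adjusted p = 0.262, or -2.15 without dKO 2-month replicate 1. Between the dKO ages it was -0.55 ± 0.54 (adjusted p = 0.784), or -0.35 without dKO 2-month replicate 1, and without dKO day 25 replicate 2 it turned to 0.19. The dimmer probe set had -0.24 ± 0.11 at day 25, adjusted p = 0.656, and -0.03 ± 0.11 at 2 months against wild type, which turned to 0.05 without dKO 2-month replicate 1. Its 95% intervals were -0.53 to 0.05 and -0.32 to 0.26 in the fit of all arrays. On so dim a probe set changes are understated, so these intervals do not bound the change of Foxo4 RNA.

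**Figure D2:**
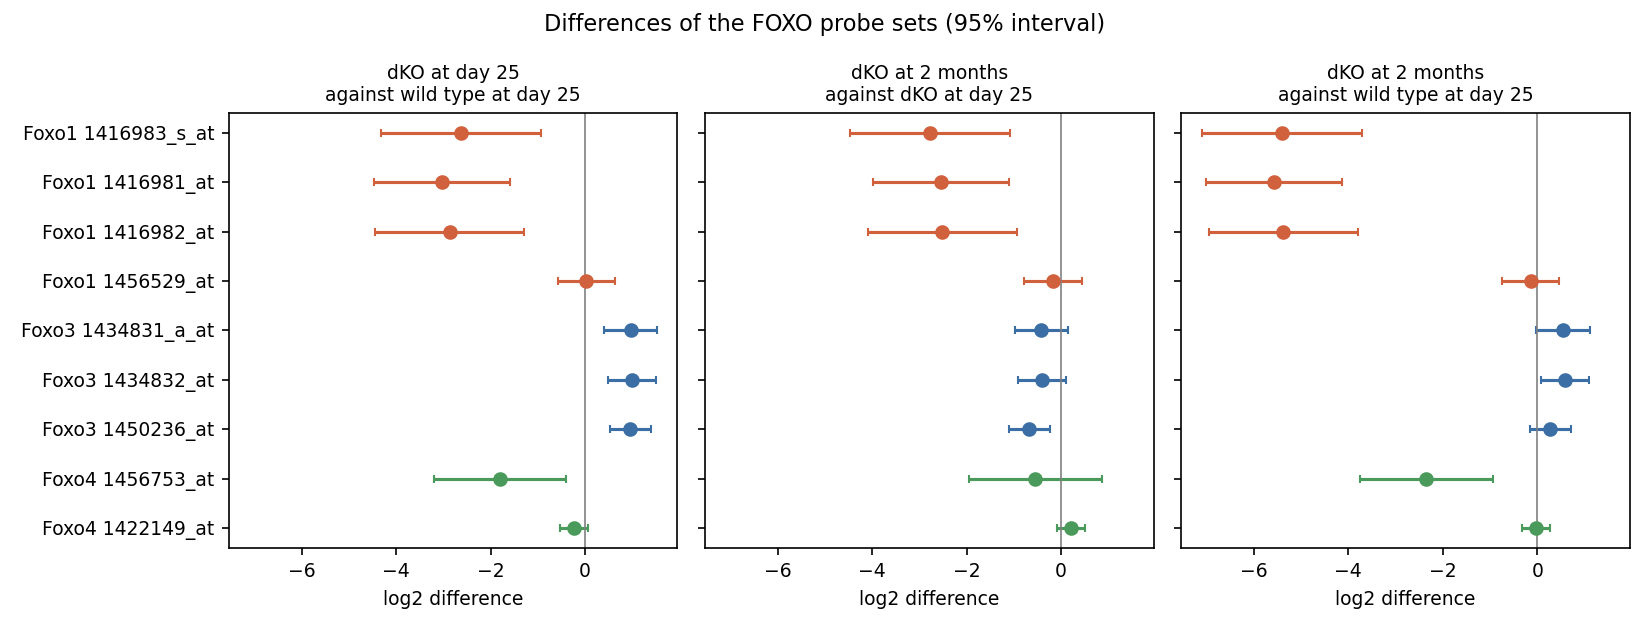
Log2 difference of each FOXO probe set (points) with its 95% interval in limma (bars) in 3 comparisons on a shared axis. The bright Foxo1 probe sets lie from -5.57 to -2.51, the Foxo3 probe sets lie above 0 in both comparisons with wild type, and the Foxo4 probe sets disagree in size.

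Over all 9 probe sets, an unadjusted p under 0.05 was found for 4 lower and 3 higher ones in dKO at day 25 against wild type, where 4.79% of all probe sets were lower and 3.36% higher. Groups did not overlap for 8 of the 9, against 41.3% of all probe sets. For dKO at 2 months against dKO at day 25 these counts were 4 lower and 0 higher (2.22% and 3.36% of all), with 7 of 9 not overlapping (32.2% of all). For dKO at 2 months against wild type they were 4 lower and 1 higher (6.11% and 6.99% of all), with 7 of 9 not overlapping (40.8% of all). The share that passed the adjusted threshold was 0 of 45037 in each comparison, or 0%. The comparisons with wild type share the wild-type arrays, and the comparisons that hold dKO at day 25 share its arrays. The 9 probe sets read only 3 genes, so those of 1 gene are repeated readings and not separate evidence.

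The changes of Foxo3 and Foxo1 were also set against each other within arrays. The log2 level of Foxo3 minus that of Foxo1 was higher by 3.59 in dKO at day 25 than in wild type (SD of the 2 arrays 0.69 in dKO and 0.10 in wild type). At 2 months it was higher by 5.95 than in wild type (SD 1.30 and 0.10), or by 5.03 without dKO 2-month replicate 1. The exact two-sided permutation test over arrays gave p = 0.333 for each, the smallest that 2 arrays against 2 allow. The log2 level of Foxo4 minus that of Foxo1 was higher by 0.83 at day 25 (SD 0.10 and 0.14) and by 3.06 at 2 months (SD 0.74 and 0.14; 2.54 without dKO 2-month replicate 1), exact permutation p = 0.333 each, so on these arrays the Foxo4 probe set was less reduced than that of Foxo1, in a design too small to test it.

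Within groups the arrays of a pair also differed in the same way for Foxo1 and the brighter Foxo4 probe set. In dKO at day 25 replicate 2 read 2.53-fold higher than replicate 1 on 1416983_s_at and 2.82-fold higher on 1456753_at. In dKO at 2 months replicate 2 read 2.72-fold and 1.31-fold higher, and in wild type replicate 1 read 1.35-fold and 1.55-fold higher. The brightest Foxo3 probe set differed by 1.33-fold at most between replicates of a group. Its higher array was that of Foxo1 in dKO at day 25 and in wild type, while at 2 months replicate 1 was higher. The dim Foxo3 probe set 1450236_at matched Foxo1 in each group. The dimmer Foxo4 probe set had replicate 1 higher in dKO at day 25. Over the 6 arrays the log2 levels of Foxo1 and Foxo4 had r = 0.92, those of Foxo1 and Foxo3 r = -0.48 and those of Foxo3 and Foxo4 r = -0.54. The arrays fall in 3 groups, so r carries the differences between the groups, and it is given as a description.

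The genes most like each member were the 5 of highest r over the 6 arrays, out of 3929 other genes whose log2 range was at least 1. For Foxo1 they were Aff3, Phlda1, Igsf3, 2700046A07Rik and Slc38a3, with r from 0.985 to 0.995. Aff3, a nuclear protein of the AF4 family, read 462 and 619 in dKO at 2 months, 955 and 1490 in dKO at day 25, and 3426 and 2691 in wild type. Slc38a3, a glutamine transporter, read 129 and 320 in dKO at 2 months, 336 and 1010 in dKO at day 25, and 2411 and 1945 in wild type. Both followed Foxo1 in the order of the groups and in which replicate of each pair was higher. Picking them by r over the same arrays largely fixes this likeness. For Foxo4 they were Ddah1, Smarca2, Ogfrl1, Akr1c14 and Dkkl1, with r from 0.983 to 0.998. Ddah1, an enzyme that breaks down methylated arginines, read 261 and 327 in dKO at 2 months, 248 and 755 in dKO at day 25, and 2256 and 1545 in wild type. For Foxo3 they were Col9a3, Arfgef3, Slc24a3, Slc1a1 and Ptpn6, with r from 0.965 to 0.979. Ptpn6, the tyrosine phosphatase SHP-1, read 214 and 201 in dKO at 2 months, 231 and 319 in dKO at day 25, and 161 and 150 in wild type. There were 77 genes with a higher r to Foxo1 than Foxo4 had.

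**Figure D3:**
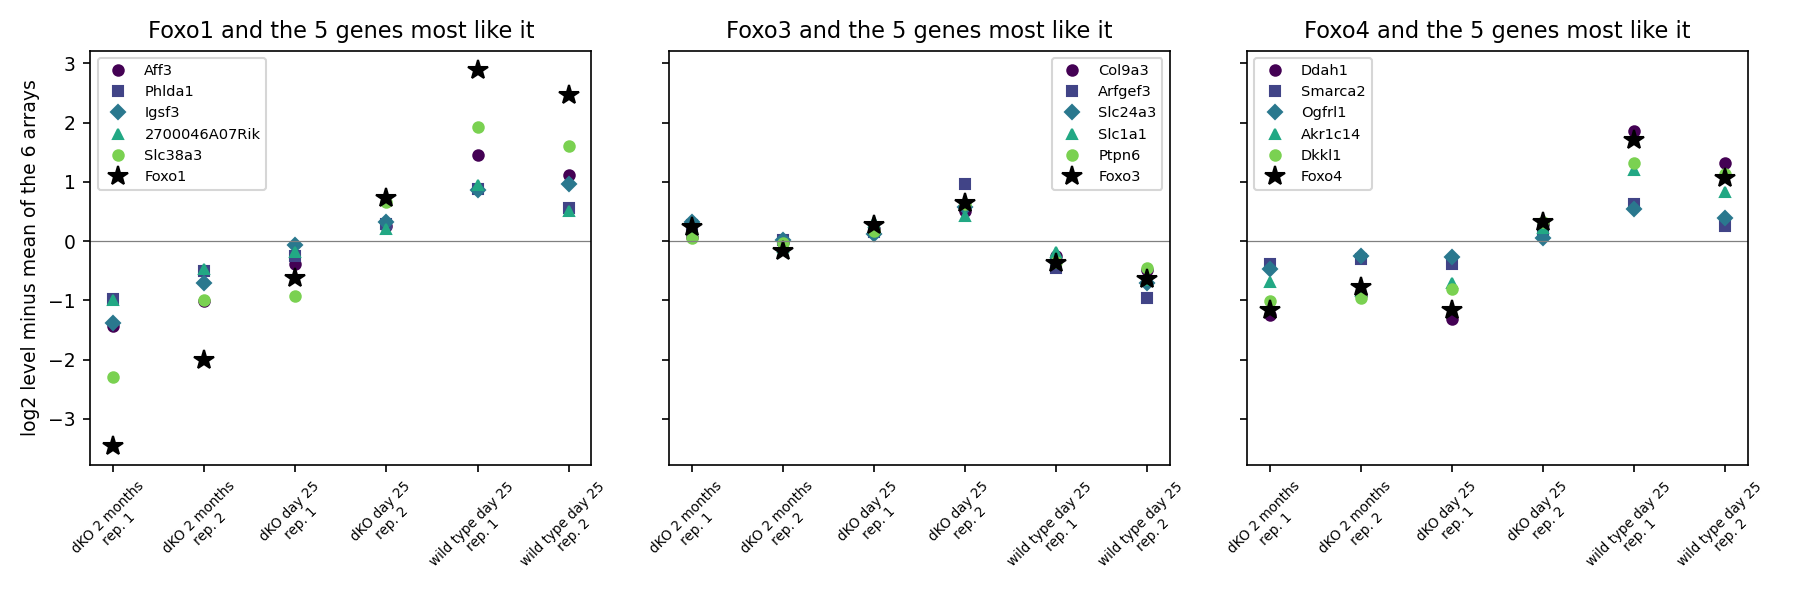
Log2 level on each array minus the mean of the 6 arrays, for each FOXO gene (star, brightest probe set) and the 5 genes of highest r with it (other points). Foxo1 spans more than the genes most like it, while Foxo3 and its like genes all stay within about 1 of their mean.

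Around the FOXO factors, 4 lists of genes were read in the same fit with 1 probe set a gene. The kinases and phosphatases that act on FOXO proteins had 26 measured members of 31 listed. At day 25 an unadjusted p under 0.05 was found for 1 higher and 4 lower members in dKO, where 4.89% of 18193 genes were higher and 3.44% lower, and 0 passed after adjustment. The list's median log2 difference was -0.01, against 0.03 over all genes. Sgk1, an SGK kinase that phosphorylates FOXO proteins, read 709 and 454 in dKO at 2 months, 339 and 476 in dKO at day 25, and 1415 and 1204 in wild type. Sgk3, of the same kinase family, read 245 and 340 in dKO at 2 months, 141 and 211 in dKO at day 25, and 306 and 274 in wild type, so only the day 25 dKO arrays lay below the rest. Prkaa2, a catalytic subunit of AMPK, read 249 and 197 in dKO at 2 months, 213 and 188 in dKO at day 25, and 91 and 136 in wild type, although 1 of its 3 probe sets was opposite in sign at day 25. Mapk9, a JNK kinase, had a log2 difference of -0.37 ± 0.12 (SE) at day 25, and Ppp2cb, a catalytic subunit of PP2A, had -0.44 ± 0.09, while a second probe set of the gene ran the other way. Adjusted p-values of these 5 genes at day 25 were from 0.474 to 0.586 in limma. Akt1 and Akt2, the main kinases of FOXO proteins, had log2 differences of -0.03 ± 0.14 and -0.02 ± 0.17. At 2 months against wild type 1 member was higher and 2 lower (9.54% and 5.38% of all genes), and against dKO at day 25 1 was higher and 0 lower (3.73% and 2.91%). These counts moved with the arrays, and so did the share of all genes at that level of p. The day 25 count fell without dKO day 25 replicate 1, and the 2-month counts rose without dKO 2-month replicate 2. The list's median log2 difference at day 25 was 0.02 without dKO day 25 replicate 1 and -0.06 without replicate 2. At 2 months against wild type it was -0.03 without dKO 2-month replicate 1 and -0.12 without replicate 2.

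Genes for the export, acetylation and turnover of FOXO proteins and for their partners had 27 measured members of 28 listed. At day 25 an unadjusted p under 0.05 was found for 1 higher and 0 lower members (4.89% and 3.44% of all genes), with a median log2 difference of -0.08. That gene was Fhl2, a LIM-domain protein that binds FOXO1 in human cells. It read 691 and 1340 in dKO at 2 months, 976 and 651 in dKO at day 25, and 213 and 280 in wild type, a log2 difference of 1.70 ± 0.39 (SE) at day 25 with adjusted p = 0.492 in limma. At 2 months against wild type the difference was 1.97 ± 0.39 with adjusted p = 0.235, or 2.45 without dKO 2-month replicate 1 (adjusted p = 0.326 in limma). All dKO arrays were above both wild-type arrays. At 2 months against wild type 3 members were higher and 0 lower (9.54% and 5.38% of all genes), the other two being Kat2b, an acetyltransferase, at 0.72 ± 0.25 and Sfn, a 14-3-3 protein, at 0.30 ± 0.11 on a probe set that read 24 to 33. Kat2b had 0.39 and Sfn 0.21 without dKO 2-month replicate 1. Between the dKO ages 0 members were past that level in the fit of all arrays (3.73% of all genes higher and 2.91% lower). With 1 array left out the counts of this list moved, most without dKO 2-month replicate 2, and so did the share of all genes. The list's median log2 difference at day 25 was -0.03 without dKO day 25 replicate 1 and -0.12 without replicate 2. Between the dKO ages it was 0.01 without dKO 2-month replicate 1 and 0.11 without replicate 2.

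Genes that earlier work reports as FOXO targets had 33 measured members of 34 listed. At day 25 the same level of p was reached by 0 higher and 10 lower members in dKO, or 30.3% of the list, beside 4.89% higher and 3.44% lower over all genes. Means were lower for 28 and higher for 5, the median log2 difference was -0.25, and 0 passed after adjustment. The list was drawn up with earlier results of these arrays known, so its direction is no independent evidence. Pdk4, a kinase that shuts pyruvate dehydrogenase, read 201 and 214 in dKO at 2 months, 116 and 261 in dKO at day 25, and 853 and 502 in wild type. Sesn1, a sestrin of the stress response, read 719 and 559 in dKO at 2 months, 664 and 711 in dKO at day 25, and 1459 and 1057 in wild type. Irs2, an insulin receptor adaptor, had the smallest p of the list at day 25 and read 87 and 87 in dKO at 2 months, 102 and 124 in dKO at day 25, and 335 and 334 in wild type. For these genes the dKO arrays of both ages lay below wild type, as they did for Gadd45a, a growth arrest gene, with -1.03 ± 0.11 (SE) at day 25 and -1.34 ± 0.11 at 2 months (-1.36 without dKO 2-month replicate 1). Bcl2l11, the cell death activator BIM, had -0.54 ± 0.15 at day 25, and Trim63, an E3 ligase of muscle wasting, was dim at 12 to 24. Adjusted p-values of these 6 genes at day 25 were from 0.367 to 0.558 in limma.

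At 2 months against wild type, an unadjusted p under 0.05 was found for 2 higher and 6 lower FOXO target genes (9.54% and 5.38% of all genes), and the median log2 difference was -0.15, against 0.04 over all genes. Without dKO 2-month replicate 2 that median was 0.03 and without replicate 1 it was -0.25. The higher genes were Klf2, a zinc finger factor, which read 475 and 564 in dKO at 2 months, 362 and 284 in dKO at day 25, and 333 and 316 in wild type, and Txnip, a thioredoxin inhibitor, which read 8783 and 6433 in dKO at 2 months, 5017 and 5438 in dKO at day 25, and 4496 and 4907 in wild type. Their log2 differences from wild type were 0.80 and 0.45 without dKO 2-month replicate 1. Between the dKO ages 2 were higher, again Klf2 and Txnip, and 2 lower, Irs2 and Gadd45a (3.73% and 2.91% of all genes), with adjusted p = 0.712 on each in limma. That count of 4 rose without dKO 2-month replicate 2 and fell with any other single array left out. The share of all genes moved the same way. The count at day 25 fell without dKO day 25 replicate 1, where the median was -0.14, and without wild-type replicate 1, where it was -0.32. The share of all genes fell there too.

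Other forkhead genes had 21 measured members of 23 listed, and 1 higher and 1 lower gene reached an unadjusted p under 0.05 at day 25 (4.89% and 3.44% of all genes), with a median log2 difference of 0.02. The lower one was Foxp1, of the FOXP subfamily, which read 1077 and 425 in dKO at 2 months, 409 and 731 in dKO at day 25, and 1461 and 1480 in wild type. Its log2 difference was -1.43 ± 0.52 (SE) at day 25, adjusted p = 0.597 in limma, with the same sign on all 8 of its probe sets. The higher one was Foxs1, a forkhead gene described in perivascular cells of the mouse, which read 191 and 239 in dKO at 2 months, 147 and 263 in dKO at day 25, and 73 and 96 in wild type. Foxl2, the factor that keeps granulosa identity, read 13167 and 8826 in dKO at 2 months, 6317 and 7761 in dKO at day 25, and 6165 and 6783 in wild type. Its log2 difference at 2 months against wild type was 0.74 ± 0.23, adjusted p = 0.337 in limma (0.45 without dKO 2-month replicate 1), and its other probe set was opposite in sign there. Over the list, 2 genes were higher and 0 lower at that level of p at 2 months against wild type (9.54% and 5.38% of all genes), and 1 was higher and 0 lower between the dKO ages (3.73% and 2.91%). These totals rose without dKO 2-month replicate 2 and fell without wild-type replicate 1, and the share of all genes moved the same way. The count at day 25 fell without wild-type replicate 1 or dKO day 25 replicate 2, as that share did. The list's median log2 difference at day 25 was 0.04 without dKO day 25 replicate 1 and -0.03 without replicate 2.

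**Figure D4:**
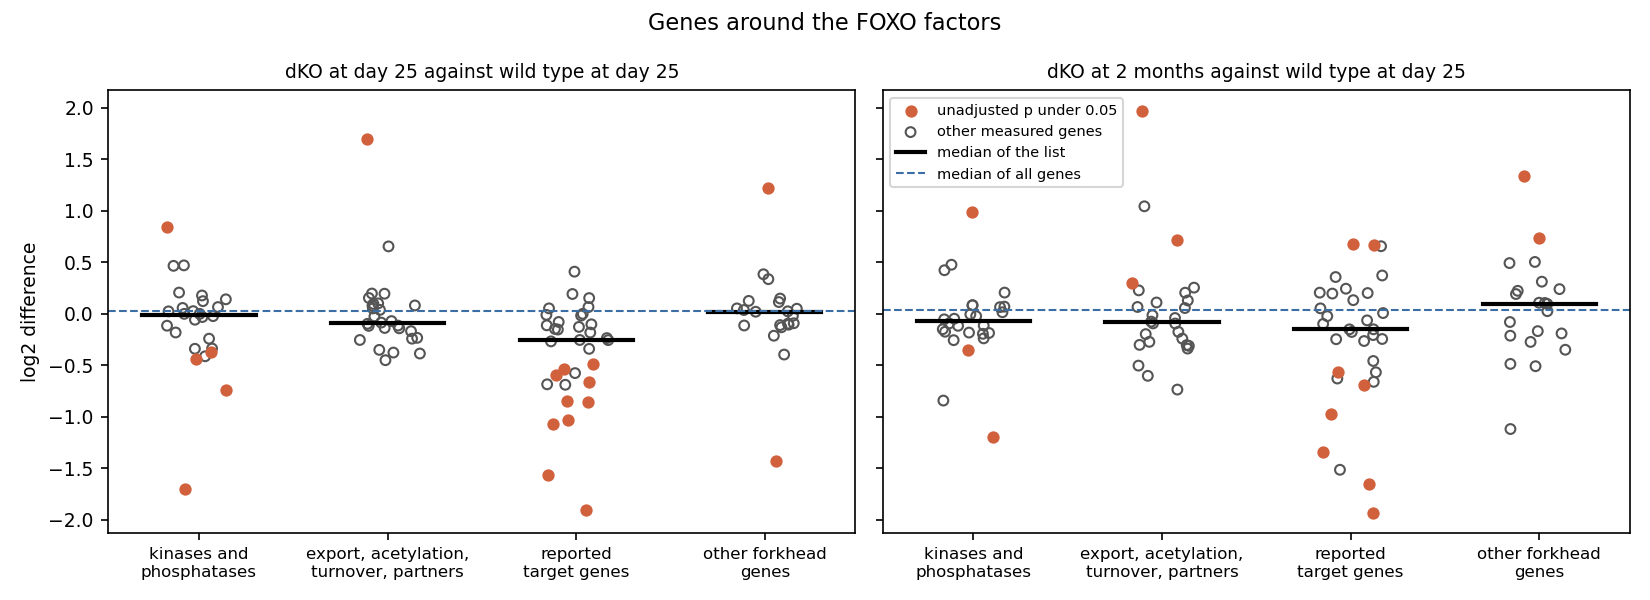
Log2 difference of each measured gene of 4 lists in dKO against wild type at day 25 (left) and in dKO at 2 months against wild type at day 25 (right). Filled points have an unadjusted p under 0.05, black bars are list medians and the dashed line is the median of all genes; the target genes have the lowest median, at -0.25 and -0.15.

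Marker genes of other cell types also varied over these arrays. Summed intensity of 14 granulosa markers was 124130 and 110498 in dKO at 2 months, 127774 and 114104 in dKO at day 25, and 108138 and 118125 in wild type, so it overlapped between all groups. Of 14 granulosa markers 8 had higher and 6 lower means in dKO at day 25. At an unadjusted p below 0.05 in limma, 0 were higher and 1 lower at day 25 (4.89% and 3.44% of all genes). At 2 months against wild type 2 were higher and 3 lower (9.54% and 5.38%). Between the dKO ages 2 were higher and 2 lower (3.73% and 2.91%), and 0 passed after adjustment. In other lists, at 2 months against wild type, 10 of 11 endothelial and 6 of 12 leukocyte markers were higher at that level of p. So were 3 of 12 stromal and smooth muscle, 3 of 6 theca and interstitial and 0 of 15 oocyte markers, and 0 of these lists were lower. Summed leukocyte markers (12 genes) were 15400 and 5033 in dKO at 2 months, 7887 and 4470 in dKO at day 25, and 1631 and 3287 in wild type. Summed endothelial markers (11 genes) were 3584 and 1883 in dKO at 2 months, 1190 and 1703 in dKO at day 25, and 897 and 1092 in wild type. In dKO at day 25, means were higher than in wild type for 11 of 12 leukocyte, 11 of 11 endothelial, 12 of 12 stromal and smooth muscle and 15 of 15 oocyte markers. Theca and interstitial markers had 3 higher and 3 lower means, and over all genes 10130 of 18193 were higher. At an unadjusted p under 0.05 in limma, 4 endothelial and 2 stromal and smooth muscle markers were higher (4.89% of all genes). For leukocyte, oocyte and theca and interstitial markers that count was 0, and 0 members of these lists were lower (3.44% of all genes). Oocyte markers (15 genes) summed to 8306 and 47020 in dKO at 2 months, 58324 and 86143 in dKO at day 25, and 41033 and 24956 in wild type. They were lowest on dKO 2-month replicate 1, the array with the lowest Foxo1, and highest on dKO day 25 replicate 2. Both wild-type arrays, which had the most Foxo1, lay below both dKO day 25 arrays and dKO 2-month replicate 2. Stromal and smooth muscle markers (12 genes) summed to 50488 and 27024 in dKO at 2 months, 30311 and 37235 in dKO at day 25, and 25088 and 17389 in wild type. Theca and interstitial markers (6 genes) summed to 46929 and 38205 in dKO at 2 months, 16250 and 29897 in dKO at day 25, and 21112 and 24255 in wild type. Itgam, a myeloid integrin, stayed at 12 to 16 on all arrays, and the other leukocyte markers averaged at least 50. Of 11 endothelial markers 3 averaged under 50, the dimmest being Pecam1 at 30 to 86. Of 15 oocyte markers 1 did, Sohlh1 at 34 to 80. The part of these cells in the FOXO values was not tested.

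**Figure D5:**
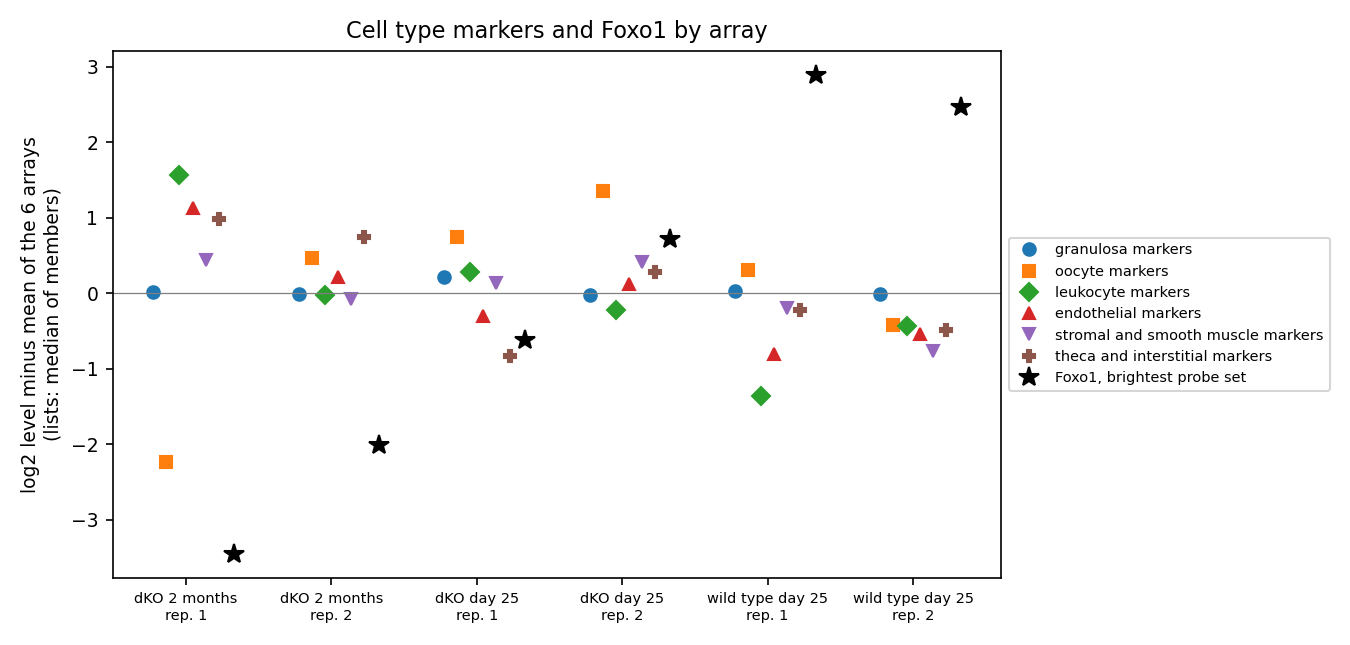
Median log2 level of 6 marker lists on each array, and the log2 level of the brightest Foxo1 probe set (star), each minus its mean over the 6 arrays. Granulosa markers stay near 0 on every array, while oocyte markers range from -2.24 to 1.36 and leukocyte markers from -1.36 to 1.56.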

How the data were processed

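Labelled cRNA from 6 samples was read on 1 Affymetrix array each, per the labels. The deposited values are intensities on a linear scale in whole numbers. Per the submitters' processing notes, the authors made them with the affy package by RMA, with versions, rounding and genome build not given in the sources used here. RMA makes arrays alike, so a shift of most genes would not be seen. Values were transformed as log2(value + 1), which understates changes of dim probe sets. Of 45101 probe sets, 64 controls were left out. One symbol was given for 34945, several for 932 and none for 9160. Where a gene has several probe sets, the one with the highest mean over all arrays leads.

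R 4.3.3 with limma 3.58.1 fitted a mean per group over all 6 arrays (3 residual degrees of freedom) with 3 contrasts. The code was tested on simulated data. Single values used the exact permutation test in SciPy 1.17.1. Members and lists were chosen with earlier results of these data known. Named genes are all FOXO probe sets, up to 6 genes per list and comparison with the smallest unadjusted p under 0.05, Foxl2, and the 5 genes most like each member; not all are printed, and Akt1 and Akt2 were added after their values were seen. Other settings tried were a pseudocount of 16, a filter at a mean intensity of 50, centring of each array on its median, a second quantile normalization, a robust prior with an intensity trend, fits of 4 arrays, a replicate block, the mean of all probe sets, other probe sets and leaving out each array. Precision is limited by the number of arrays. Since no label ties replicates to separate animals, the p-values measure only how far these samples spread, and that spread may be technical.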

Additional observations from a re-analysis of the deposited data

How the results depend on the processing

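No FOXO probe set and no member of the 4 lists around the FOXO factors passed the adjusted threshold under any setting. No call among them was therefore gained or lost. Marker lists were not counted under the other settings. Log2 differences of the brightest probe set kept their direction under every setting for Foxo3 and for Foxo1 and Foxo4 against wild type. Dim probe sets of Foxo1 and Foxo4 did not. Foxo1 probe set 1456529_at was 0.029 at day 25 in the fit of all arrays. Without dKO 2-month replicate 1 it was 0.17 at 2 months against wild type and 0.14 between the dKO ages. Foxo4 probe set 1422149_at was 0.05 at 2 months against wild type without that array. Between the dKO ages Foxo4 turned to 0.19 without dKO day 25 replicate 2, was -1.29 without replicate 1 of that group and was 0.21 on its dim probe set. The cause was not tested. With 1 array left out, Foxo1 ranged from -3.30 to -1.96 at day 25, from -3.50 to -2.07 between the dKO ages and from -6.13 to -4.69 at 2 months against wild type. Foxo3 ranged from 0.78 to 1.15, from -0.62 to -0.22 and from 0.34 to 0.75 in the same order. Over all probe sets and settings the smallest adjusted p was 0.0766 for Foxo1 (1416981_at at 2 months against wild type, over probe sets with a mean intensity of at least 50). It was 0.122 for Foxo3 (1450236_at between the dKO ages) and 0.180 for Foxo4 (1456753_at at 2 months against wild type), both without dKO 2-month replicate 2. The count of target genes at an unadjusted p under 0.05 at day 25, 10 as reported, ranged from 8 to 11 where both compared groups kept 2 arrays. It was lower with some single arrays left out, where the share of all genes was lower too. Where 1 array of a group remained, its spread was taken from the other groups. Differences between same-numbered replicates had r of -0.16, -0.21 and 0.06 between groups. With 2 arrays a group these values cannot show whether the samples were paired. With the replicate block the Foxo1 difference at day 25 was -2.63 (adjusted p = 0.669) and 0 probe sets passed. Dim probe sets near the lower quartile limit what can be read from them.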
